A study of Rattus norvegicus with 9 samples.

Results

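The genes described here start, restrain, dissolve or stabilise blood clots in tissue: the tissue factor pathway inhibitor Tfpi and its relative Tfpi2, tissue factor (F3), the protein C branch (Thbd, Procr, Pros1), the plasminogen activators and their receptor (Plat, Plau, Plaur) and the fibrin-crosslinking factor XIII A chain (F13a1). They were found by the RefSeq accession of each array probe, and these 10 genes were represented by 13 of the 30356 probes on arrays that covered 26905 genes or unnamed transcripts. The set was chosen by function, but with the differences of Tfpi and of genes around it between these 3 groups already known from these same arrays, so their levels are given as a description and no test is attached to them. Genes of the same pathway outside this set were tested and are given further on. Their list and those of cell type markers were also chosen with earlier results of these data known, and the p-values do not allow for this.

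Prostate RNA of male Sprague Dawley rats, 6 weeks old on arrival, had been hybridised to Agilent one-colour arrays, with 3 arrays in each of 3 groups. The sham group kept its testes and was given corn oil subcutaneously and distilled water by gavage. The BPH group was castrated and received dihydrotestosterone (DHT, 3 mg/kg daily, 4 weeks) with distilled water by gavage, and the BPH+ghrelin group received castration, the same DHT and, per the methods, ghrelin by gavage (20 nmol/kg daily) during the last 2 weeks. Dose and route of ghrelin are uncertain, since a legend in the study states both differently from its methods. BPH here stands for benign prostatic hyperplasia, modelled by castration with DHT, so that castration and DHT cannot be told apart in the comparison with sham. Which rats of each group gave the arrays, and which lobes were taken, is not stated, and p-values below measure the spread between these arrays only.

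Clotting outside the vessel starts when blood meets tissue factor, which binds factor VII and activates factor X. Tfpi blocks that complex, while thrombomodulin (Thbd) and the endothelial protein C receptor (Procr) turn thrombin towards activating protein C, for which protein S (Pros1) is a cofactor. Clots are dissolved by plasmin, made from plasminogen by tissue-type and urokinase-type activators (Plat and Plau), and the activators are held back by serpins such as Serpine2. Tissue factor and urokinase are also made by epithelial and stromal cells of many organs.

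Values are log2 of the background-subtracted signal after quantile normalization over the 9 arrays, in the order of replicates 1, 2 and 3, so that a difference of 1 between groups is 2-fold. A probe counts as measured where the scanner software marked it well above background. Raw signal was lowest on sham replicate 2, with a 75th percentile of 327 (up to 1065 elsewhere) and 61.4% of its probes measured (69.5% to 75.05% elsewhere). The slides were inferred from the scan that arrays share in the file headers. By this reading, slide 1 carried all BPH arrays and replicate 1 of BPH+ghrelin. Slide 2 carried the remaining BPH+ghrelin arrays with sham replicates 1 and 2, and slide 3 the last sham array, so that BPH and sham had no slide in common. At 70.6% of 22568 probes, the value of BPH replicate 2 fell between those of replicates 1 and 3. The same held for replicate 2 of BPH+ghrelin at 68.3% and for replicate 3 of sham at 72.8%. For the 9 clotting genes measured, these arrays were the middle ones at 9, 7 and 5 genes, respectively. These shares are above those of arrays equally likely to be the middle one, and the reason was not tested. The standard errors and p-values below take the 3 arrays of a group as independent.

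The tissue was checked against its markers. Of 7 genes listed for rat prostate secretory epithelium, 6 had a probe and all 6 were well above background on 9 of 9 arrays, among them probasin (Pbsn). Of 5 hepatocyte genes, Alb and Ahsg were well above background on 0 arrays, Apoh on 1, Apoa1 on 3 and Ttr on 9. Signals of 5 seminal vesicle and coagulating gland genes, glands that adjoin the rat prostate, summed to 90553 to 157654 (linear normalized signal) on sham arrays, 737 to 28504 on BPH arrays and 574 to 3950 on BPH+ghrelin arrays. Each of the 5 was well above background on at least 6 arrays, and Svs4 was called lower in BPH than in sham (limma adjusted p 0.0397, difference -4.26). Semg1 (-4.64) and Tgm4 (-2.74) were also lower in BPH without a call, while Svs5 (0.26) and Svs6 (1.27) were not lower, so that the sums rest on a few bright genes. Their part in the difference of Tfpi was not tested. In whole tissue, fewer cells of a type and less RNA per cell cannot be told apart.

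Tfpi had the widest difference among the 10 genes, and it separated sham from both castrated groups. Its level was 10.53, 10.65 and 10.49 in sham, 7.73, 7.85 and 7.95 in BPH, and 7.84, 7.98 and 8.11 in BPH+ghrelin. Every sham array stood above the 6 others, and the BPH and BPH+ghrelin arrays overlapped. Tfpi was 6.54-fold lower in BPH than in sham (difference -2.71, SE 0.12), and BPH+ghrelin differed from BPH by 0.13 (SE 0.12). BPH+ghrelin was 5.97-fold below sham, and within slide 2, where 2 arrays of each group lay side by side, it was 5.83-fold below. These values come from the probe of 1 transcript; a probe for another Tfpi transcript was well above background on 0 of 9 arrays, so that nothing can be said about that form.

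For Tfpi, windows upstream of 2 starts are among the RefSeq sequences of assembly GRCr8. They are shown because Tfpi is the gene that differed most, and each holds 250 bases before the start on the minus strand of chromosome 3, chr3:89983544-89983793 for the upstream start and chr3:89980725-89980974 for the downstream start. Capitals mark matches to the GC box (GGGCGG, either strand).
Tfpi, upstream start: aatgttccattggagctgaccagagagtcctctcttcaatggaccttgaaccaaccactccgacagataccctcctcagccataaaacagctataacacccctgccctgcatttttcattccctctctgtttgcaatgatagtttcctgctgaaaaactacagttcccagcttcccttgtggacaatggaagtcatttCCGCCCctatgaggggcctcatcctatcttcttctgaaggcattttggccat
Tfpi, downstream start: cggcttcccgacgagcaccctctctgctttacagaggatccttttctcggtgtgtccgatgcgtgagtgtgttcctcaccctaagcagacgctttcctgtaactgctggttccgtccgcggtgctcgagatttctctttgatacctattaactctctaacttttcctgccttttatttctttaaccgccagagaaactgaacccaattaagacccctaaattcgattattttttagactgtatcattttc
The upstream window holds 1 GC box, at position -52 relative to the start, and the downstream window holds none. GC boxes are common, being found in 30.5% of 33360 such windows of all genes. The letters of an androgen receptor half-site (AGAACA) are in neither window, nor in any window of the 7 genes of the set that have one, compared to 17.5% of all windows.

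Tfpi2, an inhibitor of plasmin and other trypsin-like proteases, was hardly measurable. It was measured on BPH replicate 2 alone (1 of 9 arrays), with a level of 3.17. On the other arrays it lay between 0.89 and 2.75, so that it was compared between no groups, and 9 of the 10 genes entered each comparison.

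**Figure D1:**
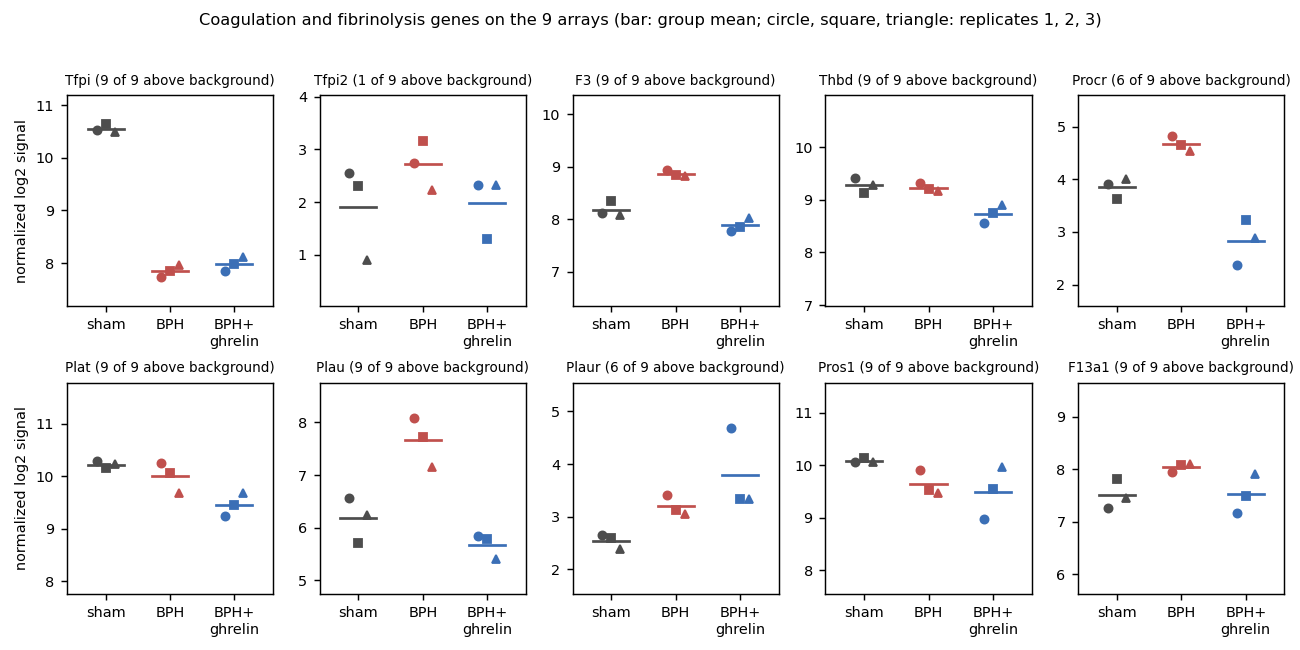
Normalized log2 signal of the 10 genes on each array, with 1 panel per gene, 4 log2 units on every vertical axis, horizontal bars for group means and 1 symbol per replicate. Tfpi was high in sham alone, while F3, Procr and Plau peaked in BPH.

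Tissue factor, the protein that Tfpi holds in check, followed another order. F3 was 8.12, 8.35 and 8.08 in sham, 8.93, 8.84 and 8.83 in BPH, and 7.78, 7.86 and 8.02 in BPH+ghrelin. The BPH arrays stood above all others, and all 3 BPH+ghrelin arrays lay below all 3 sham arrays. BPH was 1.61-fold higher than sham (difference 0.68, SE 0.13), and BPH+ghrelin was 1.97-fold lower than BPH (difference -0.98, SE 0.13). Both comparisons rest on the same BPH arrays; BPH+ghrelin and sham differed by -0.30, over all arrays and within slide 2 alike.

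As F3 and Tfpi differed in opposite directions between BPH and sham, the log2 signal of F3 minus that of Tfpi was set to 0 at the sham mean, a measure chosen after the values were seen. It was 3.57, 3.36 and 3.24 on the BPH arrays and 2.31, 2.25 and 2.28 on the BPH+ghrelin arrays, against -0.04, 0.08 and -0.04 in sham. The 3 groups did not overlap. Relative to sham, F3 over Tfpi was 10.5-fold higher in BPH, and BPH+ghrelin was 2.16-fold below BPH. In log2 these differences were 3.39 and -1.11, or 2.84 and -0.86 with another background correction (normexp, described with Procr). Between BPH+ghrelin and BPH, F3 differed by -0.98 and Tfpi by 0.13.

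Thbd, which binds thrombin at the endothelial surface, was level between sham and BPH and lower with ghrelin. It was 9.41, 9.14 and 9.28 in sham, 9.31, 9.20 and 9.18 in BPH, and 8.57, 8.75 and 8.90 in BPH+ghrelin. Sham and BPH overlapped, and BPH+ghrelin lay below both. BPH+ghrelin differed from BPH by -0.49 (SE 0.13), a 1.40-fold lower signal, while BPH and sham differed by -0.05 (SE 0.13). Another Thbd probe was measured on 1 of 9 arrays.

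Procr, which presents protein C to the thrombin-Thbd complex, had a dim signal and larger differences than Thbd in both comparisons. It was 3.91, 3.62 and 4.01 in sham, 4.82, 4.66 and 4.53 in BPH, and 2.37, 3.22 and 2.88 in BPH+ghrelin. None of the 3 groups overlapped. Procr was 1.77-fold higher in BPH than in sham (difference 0.82, SE 0.22) and 3.60-fold lower in BPH+ghrelin than in BPH (difference -1.85, SE 0.22). It was well above background on 3 of 3 BPH, 2 of 3 sham and 1 of 3 BPH+ghrelin arrays. Size depended on the background correction: with normexp, which adds an offset of 50 and compresses dim signals, these differences were 0.18 and -0.34. The differences of Thbd with normexp were -0.01 between BPH and sham and -0.45 between BPH+ghrelin and BPH. The order of Procr and Thbd thus turned with normexp in the comparison of BPH+ghrelin with BPH, but not in that of BPH with sham.

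Pros1, the cofactor of activated protein C, was bright in all groups. It was 10.06, 10.13 and 10.07 in sham, 9.90, 9.53 and 9.47 in BPH, and 8.99, 9.54 and 9.96 in BPH+ghrelin. Sham was even and above all other arrays, whereas the BPH+ghrelin arrays spread over a range that held all BPH arrays. BPH differed from sham by -0.45 (SE 0.24) and BPH+ghrelin from BPH by -0.14 (SE 0.24), the latter turning to 0.12 without BPH+ghrelin replicate 1.

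Among the plasminogen activators, the urokinase gene Plau had the largest difference between BPH+ghrelin and BPH of the 9 genes measured, over all arrays. Procr was close (-1.85), and the order turned without BPH+ghrelin replicate 2 (Plau -2.04, Procr -2.05) or replicate 3 (-1.84 and -1.88). Within slide 1 the order of Plau and Procr turned as well. Plau was 6.57, 5.71 and 6.24 in sham, 8.09, 7.72 and 7.16 in BPH, and 5.84, 5.78 and 5.40 in BPH+ghrelin. All BPH arrays stood above the other 6, and sham and BPH+ghrelin overlapped. Plau was 2.80-fold higher in BPH than in sham (difference 1.48, SE 0.29) and 3.95-fold lower in BPH+ghrelin than in BPH (difference -1.98, SE 0.29). With normexp these differences were 0.97 and -1.27. BPH+ghrelin and sham differed by -0.50.

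The upstream windows of Plau and Procr are shown because these were the genes of the set at least 2-fold lower with ghrelin. They hold 250 bases before each start in GRCr8, chr15:3511988-3512237 on the minus strand for Plau and chr3:164714477-164714726 on the plus strand for Procr. Capitals mark matches to the GC box (GGGCGG, either strand) or to AP-1 (TGANTCA, either strand).
Plau: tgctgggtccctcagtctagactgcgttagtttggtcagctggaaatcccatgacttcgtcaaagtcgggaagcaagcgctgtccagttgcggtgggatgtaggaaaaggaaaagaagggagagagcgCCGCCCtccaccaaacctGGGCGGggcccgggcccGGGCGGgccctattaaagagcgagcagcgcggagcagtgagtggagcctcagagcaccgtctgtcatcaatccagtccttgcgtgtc
Procr: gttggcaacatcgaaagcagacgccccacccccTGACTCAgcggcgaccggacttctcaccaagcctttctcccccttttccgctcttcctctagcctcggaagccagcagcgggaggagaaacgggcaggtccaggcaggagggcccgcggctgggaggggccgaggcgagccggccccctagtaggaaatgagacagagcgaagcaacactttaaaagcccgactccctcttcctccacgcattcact
The Plau window holds 3 GC boxes, and the Procr window holds 1 AP-1 match, at position -217 relative to the start. AP-1 matches were found in 6.35% of all windows and in 3 of the 7 genes of the set with a window (Procr, Plaur and Tfpi2), GC boxes in 4 of the 7 (Tfpi, Tfpi2, Plau and Pros1). No window was at hand for F3, Thbd and Plat. Matches are letters only and were not tested for binding.

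Plat, the tissue-type activator made largely by endothelium, was bright and less spread between groups. It was 10.29, 10.15 and 10.23 in sham, 10.25, 10.06 and 9.68 in BPH, and 9.25, 9.45 and 9.69 in BPH+ghrelin. The BPH+ghrelin arrays lay below sham but reached the lowest BPH array. Plat differed by -0.22 (SE 0.18) between BPH and sham and by -0.53 (SE 0.18) between BPH+ghrelin and BPH.

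Plaur, the receptor that holds urokinase at the cell surface, was dim. It was 2.66, 2.59 and 2.39 in sham, 3.40, 3.13 and 3.05 in BPH, and 4.69, 3.33 and 3.34 in BPH+ghrelin. BPH+ghrelin replicate 1 stood apart from the other arrays. As the probe was well above background on 0 of 3 sham arrays, BPH can only be called at least 1.02-fold higher than sham; BPH+ghrelin differed from BPH by 0.59 (SE 0.34), or by 0.14 without BPH+ghrelin replicate 1. Another Plaur probe was well above background only on that same array.

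F13a1, which crosslinks fibrin and is made by tissue macrophages, was highest in BPH. It was 7.26, 7.82 and 7.46 in sham, 7.95, 8.08 and 8.10 in BPH, and 7.17, 7.49 and 7.91 in BPH+ghrelin. BPH lay above both other groups, which overlapped. The difference was 0.53 (SE 0.21) between BPH and sham and -0.52 (SE 0.21) between BPH+ghrelin and BPH, while BPH+ghrelin and sham differed by 0.01.

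**Figure D2:**
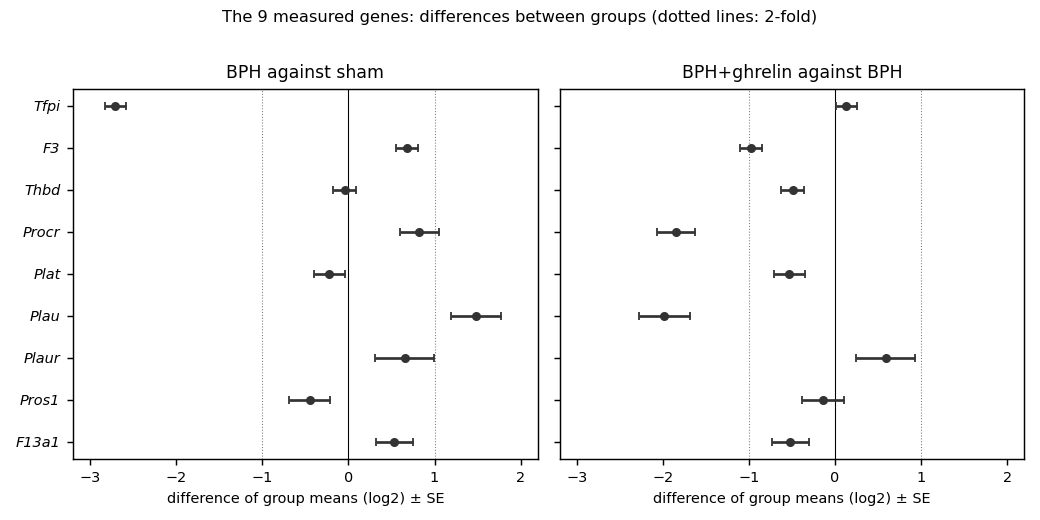
Differences of group means (log2 signal, first group minus the other; bars: SE from limma) for the 9 genes measured. Tfpi lies far to the left in BPH against sham and near 0 in BPH+ghrelin against BPH, where Plau and Procr lie beyond 2-fold.

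Counted over the 9 genes measured, 2 were at least 2-fold apart between BPH and sham, with Plau higher and Tfpi lower, where 8.16% of all 19552 genes tested were that far apart (3.53% higher and 4.63% lower). Between BPH+ghrelin and BPH, 2 were at least 2-fold apart, Plau and Procr, both lower, where 6.1% of 19749 genes were (2.9% higher and 3.2% lower). Procr entered this count mainly through BPH, as it was measured on 1 of 3 arrays with ghrelin, and the count is 1 with normexp or with a filter on all 6 arrays. The arrays of BPH and sham did not overlap for 7 genes, 5 of them higher in BPH (F3, Procr, Plau, Plaur and F13a1) and 2 lower (Tfpi and Pros1), and this held for 31.3% of all genes (17.1% higher and 14.2% lower). Those of BPH+ghrelin and BPH did not overlap for 5 genes, all lower with ghrelin (F3, Thbd, Procr, Plau and F13a1), which was so for 39.2% of all genes (19.8% higher and 19.3% lower). Plaur entered the count between BPH and sham only through BPH, being well above background on 0 of 3 sham arrays, and without it 4 of the genes measured in both groups were higher. These counts describe genes that were chosen with both comparisons known.

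Within slide 1, where BPH+ghrelin replicate 1 can be set against the 3 BPH arrays, the differences were -1.81 for Plau, -2.30 for Procr, -1.09 for F3, -0.66 for Thbd, -0.87 for F13a1 and -0.01 for Tfpi. Plaur (1.49) had a difference over 1.5 times its value over all arrays, and so had Pros1 (-0.65) and F13a1. Adjusting BPH against sham for slide, which can only be done through the BPH+ghrelin arrays, gave -2.54 for Tfpi, 0.79 for F3, 1.58 for Procr, 1.26 for Plau and 1.03 for F13a1. It turned the sign for Thbd (0.22), Plat (0.10), Pros1 (0.30) and Plaur (-0.78).

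Other genes of clotting and fibrinolysis were taken from a list of 44, chosen with earlier results of these data known, of which 39 had a probe. Of the factors made mainly by liver, the 3 fibrinogen chains (Fga, Fgb and Fgg), F7, F9 and Klkb1, and the antithrombin and heparin cofactor genes Serpinc1 and Serpind1, were well above background on 0 of 9 arrays. Plasminogen (Plg), the substrate of Plat and Plau, was measured on 9 of 9 arrays, as were A2m and Serpina5, and F12 on 8. In BPH+ghrelin against BPH, 20 listed genes passed the filter on dim probes, and by limma with Benjamini-Hochberg adjustment over all genes 0 were called higher (adjusted p under 0.05; 0.496% of all genes) and 2 lower (0.987% of all genes), against 1.48% called in either direction over all genes, while 7 had an unadjusted p under 0.05 (21.1% of all genes). The median difference of the 20 was -0.14, compared to 0.02 over all genes tested. In BPH against sham, 21 passed, with 1 called higher (2.15% of all genes), 1 lower (2.18% of all genes, and 4.33% either way), 3 at an unadjusted p under 0.05 (26.5% of all genes) and a median of 0.07 against 0.04.

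Serpine2 (protease nexin 1, which blocks thrombin and urokinase) was among the genes called lower in BPH+ghrelin than in BPH. It was 6.14, 5.78 and 5.57 in BPH, 4.42, 4.28 and 4.02 in BPH+ghrelin, and 6.16, 5.85 and 5.83 in sham. All BPH+ghrelin arrays lay below all others, and BPH and sham overlapped. Serpine2 was 3.00-fold lower with ghrelin (limma difference -1.59, SE 0.19, adjusted p 0.0160). On leaving out 1 array, the call was lost for replicates 1 and 2 of BPH (limma adjusted p 0.0601 and 0.115) and for replicates 2 and 3 of BPH+ghrelin (0.0938 and 0.0539), and the difference with normexp was -0.57. Within slide 1 the difference was -1.40. It was the same with slide as a block, which rests on BPH+ghrelin replicate 1, and the call was then lost.

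Relative to the sham mean, the log2 signal of Plau minus that of Serpine2 was 1.72, 1.72 and 1.37 in BPH, 1.19, 1.27 and 1.15 in BPH+ghrelin and 0.18, -0.37 and 0.19 in sham. Between BPH+ghrelin and BPH this measure differed by -0.40, as the signals of Plau and of its inhibitor Serpine2 were both lower. Its size depended on the background correction, being -0.69 with normexp.

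In BPH against sham, prothrombin (F2) was the gene called lower. It was 5.21, 6.84 and 5.90 in sham, 3.39, 2.01 and 0.59 in BPH, and 1.27, 2.42 and 1.48 in BPH+ghrelin. It was well above background on 3 of 3 sham, 1 of 3 BPH and 0 of 3 BPH+ghrelin arrays, so that it entered the comparison mainly through sham and the size of its difference is uncertain. The fitted difference was -3.99 (SE 0.71, limma adjusted p 0.0249), but it was -0.97 with normexp, and the call was lost without BPH replicate 2 (adjusted p 0.113), BPH replicate 3 (0.0590) or sham replicate 3 (0.0938). A fit of the 6 arrays compared (limma adjusted p 0.0816) and replicate number as a block (0.0565) also lost the call. With slide as a block it was lost too, at a difference of -3.35.

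Annexin A2 (Anxa2), a surface receptor for plasminogen and Plat, was the gene called higher in BPH than in sham. It was 12.81, 12.74 and 12.79 in sham, 13.59, 13.34 and 13.24 in BPH, and 13.12, 12.99 and 12.89 in BPH+ghrelin. The 3 groups did not overlap. Anxa2 was 1.53-fold higher in BPH (limma difference 0.61, SE 0.13, adjusted p 0.0420), and the call held without sham replicate 1 (adjusted p 0.0359) and was lost on leaving out any other of the 6 arrays (0.0594 without sham replicate 2, 0.0703 without BPH replicate 3, 0.0784 without BPH replicate 1, 0.140 without sham replicate 3 and 0.167 without BPH replicate 2). Scaling each array to its 75th percentile gave 0.35 (limma adjusted p 0.132). The call was also lost with no filter on dim probes (limma adjusted p 0.0600) and in a fit of the 6 arrays compared (0.121). Replicate number as a block (limma adjusted p 0.0824) and slide as a block (difference 0.44) lost it as well.

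Below these, 2 genes were near the threshold with ghrelin and were singled out after their values were seen. Serpina5 (protein C inhibitor) had a difference of -0.84 (limma adjusted p 0.0524) and Gas6, a relative of protein S and ligand of Axl, one of -0.80 (limma adjusted p 0.0719). The 3 genes of the vitamin K cycle, which activates clotting factors and protein S, had differences of 0.04 to 0.61, and 0 were called by limma.

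**Figure D3:**
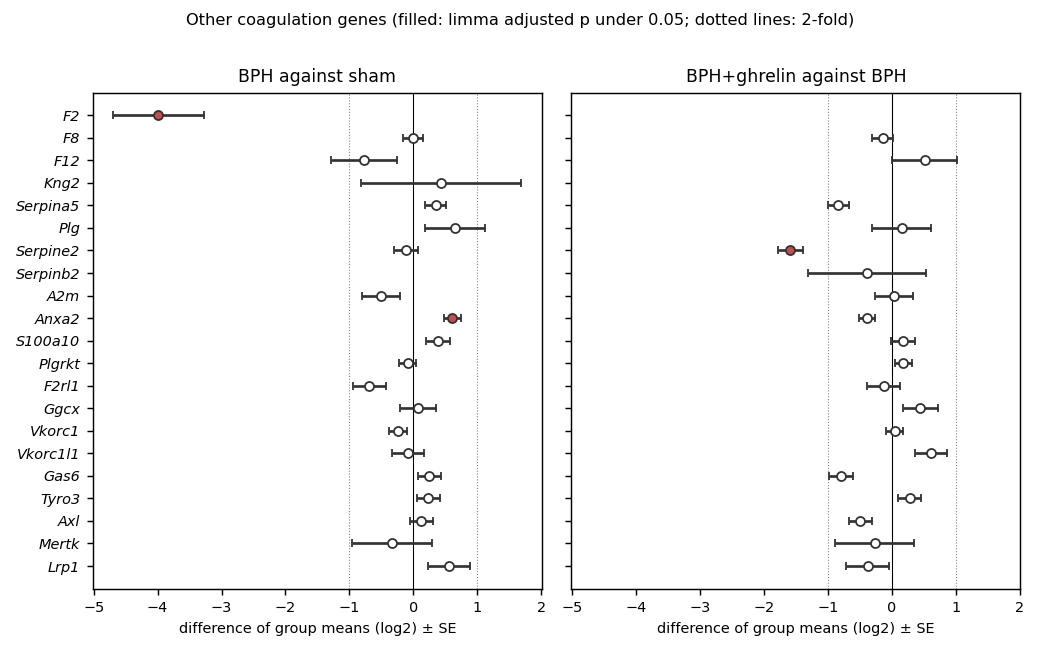
Differences of group means (log2 signal, bars: SE from limma) for listed clotting and fibrinolysis genes that passed the filter on dim probes. Filled points mark genes with a limma adjusted p under 0.05, which were F2 and Anxa2 in BPH against sham and, among the genes drawn, Serpine2 in BPH+ghrelin against BPH.

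Marker lists of cell types that can make these proteins are given by their counts, beside 0.987% of all genes called lower with ghrelin and a median of 0.02 over all genes tested. Of 8 endothelial genes compared between BPH+ghrelin and BPH, 7 were lower and 1 of them, Cldn5, was called lower by limma, with a median of -0.29 and summed signals of 1266 to 1558 in sham, 942 to 1429 in BPH and 849 to 976 in BPH+ghrelin. Macrophage markers were lower for 8 of 9, with C1qa and Mrc1 called lower and a median of -0.57 (sums 46023 to 47398 in sham, 49393 to 63305 in BPH and 40510 to 54511 in BPH+ghrelin). Smooth muscle markers were lower for 5 of 5, with Myh11 called lower and a median of -0.55 (sums 8994 to 14992, 9970 to 15674 and 7367 to 9134). Fibroblast markers were lower for 5 of 6, with Lum called lower and a median of -0.21 (sums 12963 to 23924, 19402 to 29598 and 18535 to 25758).

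In comparison, blood cell markers were not called in either comparison: platelet genes, of which Ppbp was well above background on 0 arrays, had a median of -0.01 with ghrelin (sums 279 to 327 in sham, 291 to 325 in BPH and 286 to 355 in BPH+ghrelin). Erythroid genes had a median of 0.03 (sums 17695 to 24144, 19911 to 37834 and 16567 to 43520). Basal epithelial genes had a median of -0.04 with ghrelin, and Krt14 was called higher in BPH than in sham (sums 4293 to 6132, 5154 to 6980 and 7198 to 7635). Most endothelial, macrophage, smooth muscle and fibroblast markers thus had lower means in BPH+ghrelin than in BPH, as had Thbd, Procr, Plat, F3, Plau and F13a1, and their part in those differences was not tested. Between BPH and sham, where F3, Procr, Plau and F13a1 were higher in BPH, fibroblast markers had higher means in BPH for 6 of 6 (median 0.36, 0 called) and macrophage markers for 7 of 9 (median 0.21), with Adgre1 called higher (limma difference 1.18, adjusted p 0.0434). Endothelial markers had higher means for 6 of 9 (median 0.16, 0 called) and smooth muscle markers for 4 of 5 (median 0.19, 0 called), beside a median of 0.04 over all genes tested and 2.15% of them called higher. Means were also higher in BPH for basal epithelial markers (3 of 4, median 0.51) and erythroid markers (4 of 5, median 0.42). Platelet markers had higher means for 3 of 5 (median 0.21) and secretory epithelial markers for 3 of 6 (median -0.09). The part of these markers was not tested here either.

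The genes most like Tfpi were sought among 3501 genes well above background on at least 3 arrays with an SD of at least 0.5, by Pearson's r over the 9 arrays. They were Asb11 (r 0.997), Gucy2c (0.991), Acsm4 (0.984), Defb2 (0.981) and Gsta4 (0.980). Since Tfpi forms a high group and a low group, r mainly reflects the step between sham and the other arrays, and it is given as a description. Asb11, a ubiquitin ligase subunit, was 8.34, 8.93 and 8.48 in sham and between 5.16 and 5.68 on the other 6 arrays. The glutathione transferase Gsta4 differed by -1.69 between BPH and sham. Gucy2c (the guanylin receptor), Acsm4 and the beta-defensin Defb2 were well above background on the 3 sham arrays only, so that their values outside sham, and with them their r and rank, rest on signal near background.

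The secretory marker probasin, set beside Tfpi after its values were seen, was likewise highest in sham. It was 6.27-fold lower in BPH than in sham (limma adjusted p 0.00189), and BPH+ghrelin differed from BPH by 0.76 (limma adjusted p 0.132). The corresponding difference of Tfpi was 0.13, and whether these genes differ in their response to ghrelin was not tested.

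**Figure D4:**
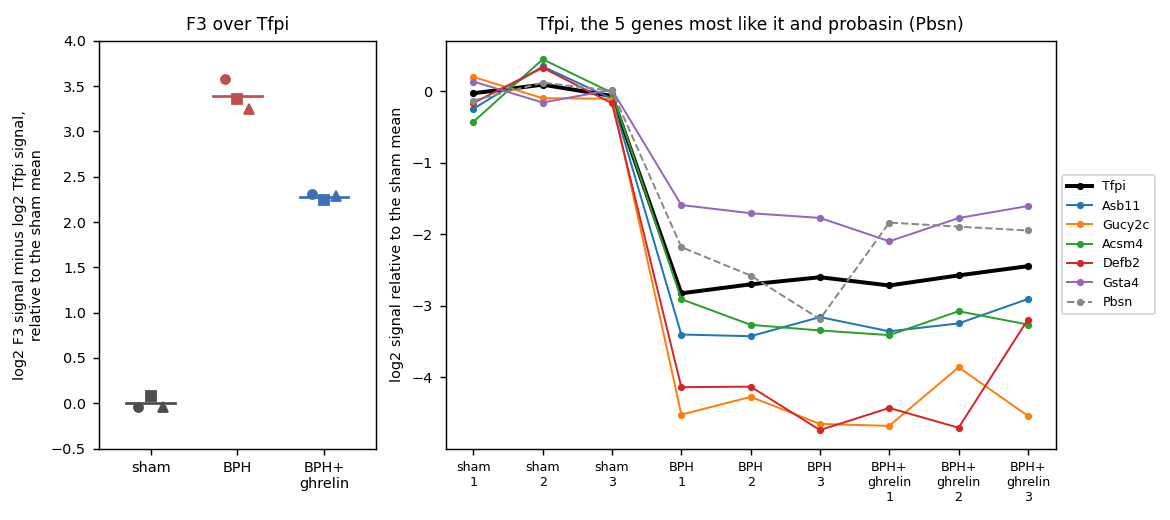
Left, log2 signal of F3 minus that of Tfpi on each array relative to the sham mean (bars: group means; symbols: replicates), which was near 0 in sham, 3.24 to 3.57 in BPH and 2.25 to 2.31 in BPH+ghrelin. Right, log2 signal relative to the sham mean on each array for Tfpi, the 5 genes most like it and the secretory marker Pbsn (dashed); Gucy2c, Acsm4 and Defb2 were not well above background outside sham.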

How the data were processed

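RNA of rat prostates was measured on 9 arrays, 3 per group, grouped by their titles. The authors deposited the intensity of each spot from the scanner software (Agilent Feature Extraction 11.0.1.1), which had subtracted background and spatial trends; it was not normalized between arrays. The authors also deposited a matrix of log2 values, which they had quantile normalized; it was used as an alternative, and its 9 columns each correlated best with their own array.

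Control and outlier spots were left out, spots of a probe were averaged, and log2 intensities were quantile normalized. No spot was saturated, and the number of arrays limits the precision. Probes were named by accession through the RefSeq gene table of GRCr8 (59.3% of 30367 probes matched a symbol); the array's own annotation is on rn4. For a comparison of 6 arrays, probes needed to be measured (well above background) on 3 or more of them, and the brightest such probe stood for its gene. Groups were compared in R 4.3.3 with limma 3.58.1 (lmFit and eBayes, 3 groups, 9 arrays), with Benjamini-Hochberg adjustment over all genes tested, a call being an adjusted p under 0.05. Bounds ("at least") set the brighter group against the lowest signal well above background.

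The members and lists were chosen with earlier results of these data known. Named genes were the 10 members, listed genes called or at least 2-fold apart (up to 5 each way), and the 5 genes most like Tfpi. Some genes that are counted are not reported by name here. The comparison of BPH+ghrelin with sham was added after seeing the data. Alternatives were scaling to the 75th percentile, normexp (offset 50, on median spot and background signals), no filter or a filter on all 6 arrays, the mean of a gene's probes, a fit of the 6 arrays compared, replicate number or slide as a block, slide as a random block, eBayes with trend and robust settings, the deposited matrix, and leaving out each array.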

Additional observations from a re-analysis of the deposited data

How the results depend on the processing

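The number of the 9 genes at least 2-fold apart between BPH+ghrelin and BPH was 2, and became 1 with normexp or with a filter on all 6 arrays, 4 with slide as a block or within slide 1, and 2 to 3 when each array was left out. Between BPH and sham it was 2, and became 1 with normexp, 4 with slide as a block, and 2 to 2 when each array was left out. Scaling to the 75th percentile kept the sign of all 9 genes in both comparisons, and the counts were then 3 (F3 at -1.02) and 2.

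The number of other coagulation genes called by limma between BPH+ghrelin and BPH was 2. It was 4 in a fit of the 6 arrays compared, 5 with slide as a random block, 0 with slide as a block, and 0 to 3 when each array was left out. Between BPH and sham it was 2, and it was 1 with scaling to the 75th percentile or a filter on all 6 arrays, 0 in a fit of the 6 arrays or with slide as a block, 5 with slide as a random block, and 0 to 3 when each array was left out. The correlation within slides was -0.21 in both comparisons, so the random block counts arrays on a slide as less alike than others. With slide as a block, BPH+ghrelin against BPH rests on BPH+ghrelin replicate 1 as the array that shares a slide with BPH.

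The replicate numbers did not pair the arrays: correlations of deviations between BPH and BPH+ghrelin arrays with the same number were -0.07, 0.05 and -0.04, and between BPH and sham -0.02, 0.0083 and -0.01. With the replicate number as a block, 1 other coagulation gene was called between BPH+ghrelin and BPH and 0 between BPH and sham, and the number of all genes called was 17 in place of 293 and 243 in place of 847. When each array was left out, all genes called numbered 3 to 400 and 120 to 3085. Signal near background limits Procr, Plaur, Tfpi2 and F2.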
